A study of Drosophila melanogaster with 8 samples.

Results

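A set of 90 genes of Drosophila melanogaster that carry only a CG number was nearly silent in control ovaries and was expressed in every ovary library labelled as a germline knockdown of stwl. The members were chosen from 6423 CG-numbered genes among 14094 genes counted. The rule scaled each library to a total of 1000000 counts (CPM) and asked for under 1 CPM in all 4 control libraries and at least 5 CPM in all 4 libraries labelled stwlGKD. Of the CG-numbered genes 1.40% met it, against 1.67% of all genes. These shares describe the rule, which used the comparison of knockdown-labelled with control libraries, so no test of the members in that comparison is given below.

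A CG number is the identifier that the fly genome annotation gives to a predicted gene, and it stays as the gene's symbol until a study of the gene supplies a name. The symbol therefore says that little was published when the annotation was made, and nothing about function. stwl (stonewall) encodes a chromatin-associated protein with a MADF domain that female germ cells need for oogenesis. An ovary contains germ cells together with follicle cells, niche and escort cells and a muscle sheath, and dissected ovaries can carry tracheae, haemocytes and fat body. No genome, promoter or protein sequence was used here, so the genes are described by position, gene structure and level.

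RNA was measured in whole ovaries of adult flies dissected on days 1 to 3 after eclosion, in 4 groups of 2 libraries. The knockdown-labelled groups carried the genotype bamGAL4>stwl RNAi/TM6 or nosGAL4;stwl RNAi/TM6. Their controls, labelled WT, carried bamGAL4 with no balancer listed, or nosGAL4;MKRS/TM6. Both drivers are germline drivers: bam drives expression in dividing cysts, and nos acts from the stem cells onward. The libraries of each driver stand in a count table of their own, so the driver and any difference in handling cannot be told apart. Both knockdown groups carry the balancer TM6, which is absent from the listed genotype of the bamGAL4 control, and the labels do not say whether the libraries of a group came from separate crosses. P-values therefore measure the spread between these libraries, which may be technical.

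Total counts ran from 7473859 to 12174983 per library, so that 1 CPM stood for 7.47 to 11.5 counts in a control library and 5 CPM for 42.3 to 60.9 counts in a knockdown-labelled library. The mRNA of stwl itself stood at 21.5 and 26.8 CPM in the bamGAL4 and 53.4 and 24.5 CPM in the nosGAL4 libraries labelled stwlGKD, against 18.6 and 23.0 CPM in the bamGAL4 controls and 28.5 and 18.8 CPM in the nosGAL4 controls. It was not lower with either driver, so these counts do not show the knockdown that the label states. The cause was not tested. The replicates of nosGAL4 stwlGKD were the least alike pair, with a correlation of log2 CPM across genes of 0.925, against 0.97 to 0.984 in the other groups. Marker genes of most other cell types also moved with the label. Summed over 21 muscle markers, each with counts under both labels, the level was 42548 to 59254 CPM in the 4 libraries labelled stwlGKD, against 923 to 1176 CPM in the 4 controls. Summed over 12 eggshell genes of late follicle cells it was 163 to 4024 CPM, against 20378 to 30478 CPM, and over 15 germline genes 993 to 1208 CPM, against 2966 to 4678 CPM. The germline genes did not move alike: 10 of the 15 were lower in every knockdown-labelled library than in every control, and 3 (tud, grk and bgcn) were higher. The translational repressor nos was at 1.29 to 4.02 CPM in the knockdown-labelled libraries, against 491 to 509 CPM in the controls, while tud, a germ plasm component, was at 384 to 694 CPM, against 38.3 to 75.3 CPM. In whole ovaries, fewer cells of a type and less RNA per cell cannot be told apart, and the part of changed cell proportions in the levels below was not tested.

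Together the 90 genes made up a small share of the RNA. They summed to 3176 and 2952 CPM in bamGAL4 stwlGKD and to 2070 and 2634 CPM in nosGAL4 stwlGKD, against 22.2 and 28.4 CPM in bamGAL4 WT and 15.3 and 25.3 CPM in nosGAL4 WT. That is 0.207% to 0.318% of the counts of a knockdown-labelled library. No gene dominated the sum, since the highest gave 6.1% to 8.23% of it in any knockdown-labelled library. The median gene stood at 23.9 and 23.2 CPM in bamGAL4 stwlGKD and at 15.0 and 19.5 CPM in nosGAL4 stwlGKD. Averaged over the 4 knockdown-labelled libraries the genes ran from 6.52 to 190 CPM with a median of 20.9 CPM. 16 of them averaged at least 50 CPM, 13 averaged under 10 CPM, and 52 reached 10 CPM in every knockdown-labelled library.

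**Figure D1:**
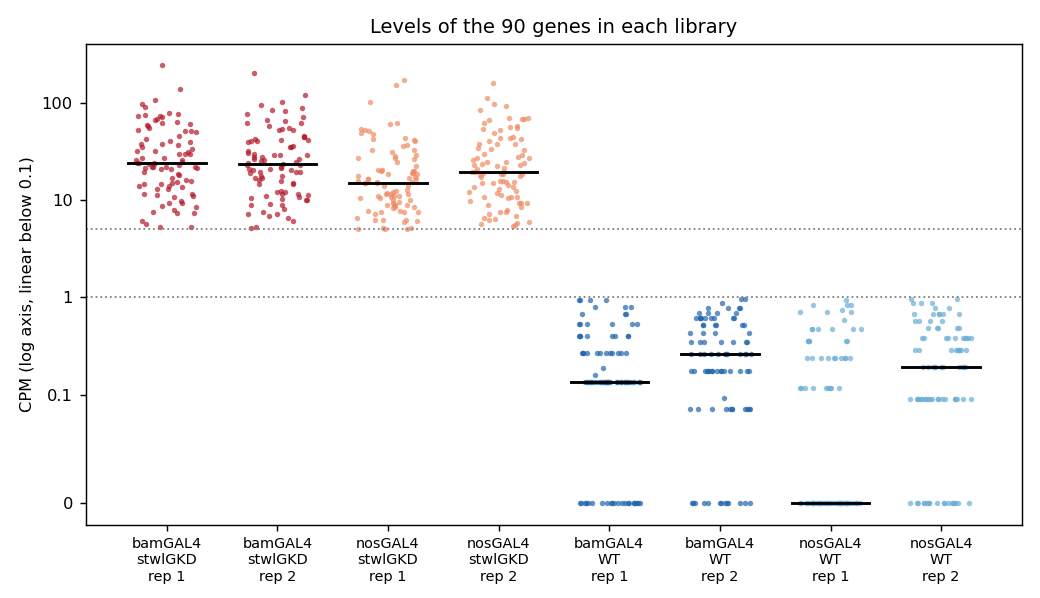
CPM of the 90 genes in each of the 8 libraries, on a log axis that is linear below 0.1. Each dot is a gene, the black bar is the median of the library and dotted lines mark the thresholds of 1 and 5 CPM that chose the genes, which is why no dot lies between them. Medians were 23.9 and 23.2 CPM in bamGAL4 stwlGKD, 15.0 and 19.5 CPM in nosGAL4 stwlGKD, and at most 0.261 CPM in a control library.

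"Absent" is too strong a word for most of these genes in the controls. Only CG10764 had no count in any control library. In the bamGAL4 controls 6 of the 90 genes had no count, 31 had up to 3 counts over both libraries and 53 had more. In the nosGAL4 controls the numbers were 14, 28 and 48. Replicate 1 of nosGAL4 WT had no count for 50 of the genes, against 18 in replicate 2, which was also sequenced more deeply. Replicate 1 of bamGAL4 WT, with the lowest total of all libraries, had no count for 22. The cause of these differences was not tested. Where a control group held more than 3 counts, the ratio of knockdown-labelled to control level ran from 13.9 to 533 with bamGAL4 (median 65.3, 53 genes) and from 13.3 to 333 with nosGAL4 (median 56.8, 48 genes). These ratios describe the genes that the thresholds selected and are not evidence of a change.

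CG4950 and CG1092 had the highest averages. CG4950 (FBgn0036587, dm6 3L:16265797-16268156, minus strand), whose transcripts have a single exon that codes for 574 amino acids, was at 245 and 203 CPM in bamGAL4 stwlGKD and at 151 and 161 CPM in nosGAL4 stwlGKD, against 0.134 and 0.609 CPM in bamGAL4 WT and 0.118 and 0.193 CPM in nosGAL4 WT. CG1092 (FBgn0037228, 3R:4266770-4268316, plus strand) was at 138 and 119 CPM in bamGAL4 stwlGKD and at 101 and 111 CPM in nosGAL4 stwlGKD, against 0.401 and 0.261 CPM in bamGAL4 WT and 0.237 and 0.385 CPM in nosGAL4 WT. Both genes were even between replicates in all knockdown-labelled libraries and somewhat higher with bamGAL4. For CG4950 the ratio to control was 533 with bamGAL4 (95% counting interval 271 to 1236, from 8 control counts) and 978 with nosGAL4 (334 to 4747, from 3 control counts). Such intervals cover counting error only. The rule chose genes with high ratios, so an interval far above 1 was set by that choice and is not evidence of a change. A gene listed as antisense to CG4950, CG13069, was at most 0.352 CPM in any library.

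CG9411 differed from the other abundant genes in the balance of the drivers. It lies at X:14472408-14480086 on the minus strand and its coding sequence spans 993 codons. It was at 25.8 and 29.0 CPM in bamGAL4 stwlGKD and at 170 and 92.6 CPM in nosGAL4 stwlGKD, against 0 and 0.0869 CPM in bamGAL4 WT and no count in nosGAL4 WT. Its nosGAL4 level was at least 825-fold above control, with the control set to a floor of 3 counts over the group. CG13793 (2L:7716974-7719487) had the opposite balance, at 106 and 101 CPM in bamGAL4 stwlGKD and 49.2 and 48.9 CPM in nosGAL4 stwlGKD, against 0 and 0.0869 CPM in bamGAL4 WT and 0.237 and 0.481 CPM in nosGAL4 WT. Replicates of CG13793 were close in both groups, and the groups did not overlap.

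Long genes, namely CG31690, CG30116 and CG45263, were among the most abundant as well. CG31690 (2L:2677734-2719431) is named Tmtc1 in the current reference, after a family of transmembrane proteins with tetratricopeptide repeats that in mammals attach mannose to other proteins. It was at 91.1 and 83.3 CPM in bamGAL4 stwlGKD and 42.0 and 69.4 CPM in nosGAL4 stwlGKD, against 0.134 and 0.609 CPM in bamGAL4 WT and 0.355 and 0.289 CPM in nosGAL4 WT. CG30116 (2R:18456602-18498026), with up to 19 exons, was at 97.3 and 93.9 CPM in bamGAL4 stwlGKD and 36.6 and 55.8 CPM in nosGAL4 stwlGKD, against 0.268 and 0.609 CPM in bamGAL4 WT and 0.118 and 0.674 CPM in nosGAL4 WT. In both genes each bamGAL4 library lay above each nosGAL4 library. CG45263 (3R:8364328-8477617) and the shorter gene CG17032 (3L:15958843-15960609) overlapped between drivers instead. CG45263 was at 58.5 and 88.8 CPM in bamGAL4 stwlGKD and 50.9 and 83.1 CPM in nosGAL4 stwlGKD, against no count in bamGAL4 WT and 0.828 and 0.193 CPM in nosGAL4 WT. CG17032 was at 67.4 and 53.9 CPM in bamGAL4 stwlGKD and 62.3 and 97.4 CPM in nosGAL4 stwlGKD, against 0.535 and 0.609 CPM in bamGAL4 WT and 0 and 0.0963 CPM in nosGAL4 WT. Each of these 4 genes differed more between its nosGAL4 replicates than CG4950 or CG1092 did, with replicate 2 the higher.

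**Figure D2:**
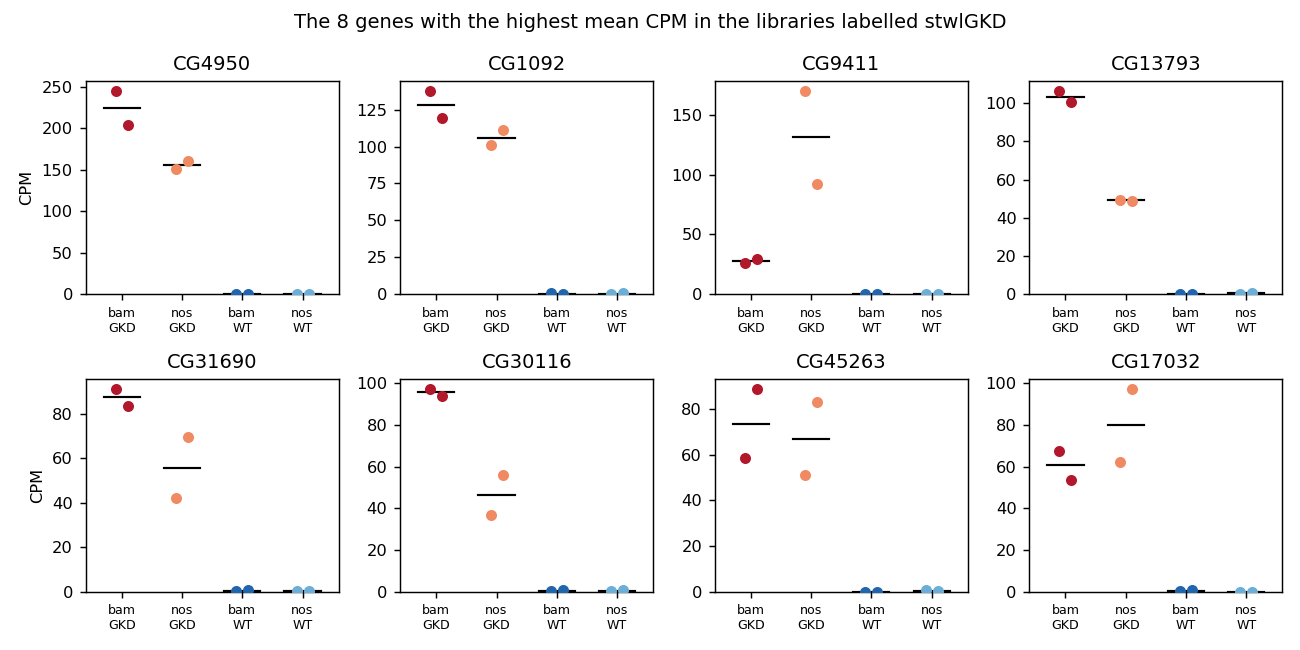
CPM of the 8 genes with the highest mean over the knockdown-labelled libraries, on linear axes that start at 0. Dots are libraries and bars are group means of 2 libraries (bam and nos for the drivers, GKD for stwlGKD). CG9411 is at 25.8 and 29.0 CPM with bamGAL4 and 170 and 92.6 CPM with nosGAL4, while CG13793 has 106 and 101 CPM against 49.2 and 48.9 CPM.

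Dividing by the length of the annotated exons changed the order. On the scale of CPM per kilobase of exon, averaged over the 4 knockdown-labelled libraries, CG17919 (80.7), CG4950 (80.5) and CG1092 (78.6) stood together at the top. CG17919, chosen here after its values were seen, has only 0.778 kb of exon and shares exonic sequence with the splicing factor gene SmD2 on the other strand. SmD2 was at 40.9 to 109 CPM in the knockdown-labelled libraries, against 142 to 221 CPM in the controls, so it stood lower where CG17919 stood higher. The median gene had 10.8 and the lowest, CG33978, had 0.779 CPM per kilobase over 14.1 kb of exon.

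The rule did not use the difference between bamGAL4 and nosGAL4 stwlGKD, but it used the values of these same 4 libraries, and its floor bound mostly in nosGAL4. Among CG-numbered genes below 1 CPM in every control, 90 passed in both bamGAL4 but not both nosGAL4 libraries and 12 the other way round. Genes much lower with nosGAL4 were thus more often left out, and the counts and medians of members given here for the drivers are descriptions of the genes that remained. With edgeR's quasi-likelihood test and Benjamini-Hochberg adjustment over all 8957 genes tested, 2 of the 90 genes were higher and 1 was lower with bamGAL4 at an adjusted p under 0.05. Over all genes tested, 2.12% were higher and 2.02% lower (4.14% in all), so the members' count lay near the background. Scaling to ribosomal protein genes raised the difference of the median gene by 0.46 on the log2 scale and gave 4.41% higher and 0.971% lower over all genes, with 5 members higher and 1 lower. Without bamGAL4 stwlGKD replicate 1 or replicate 2 the edgeR count was 0 in either direction (4 and 6 higher, 1 and 3 lower at p under 0.05 before adjustment), and without nosGAL4 stwlGKD replicate 2 it was 12 higher and 1 lower, where 5.74% of all genes were higher and 9% lower. The log2 difference of the members had a median of 0.36 (quartiles −0.021 and 0.73, range −2.32 to 1.71), against −0.0052 for all genes tested. It was above 0 for 67 members and below 0 for 23. On the CPM scale both bamGAL4 libraries lay above both nosGAL4 libraries for 51 members (32.6% of all genes tested did so) and below for 8 members (23.9%), while 31 members overlapped. The same contrast for genes with other names that met the same thresholds had a median of 0.51 over 146 genes, with 3 higher and 0 lower. Some marker lists also differed along this contrast, and others held few calls or none. Fat body markers were higher with bamGAL4 in 4 of 9 cases tested (median 2.12), haemocyte markers in 1 of 11 (median 0.67) and spermatheca and oviduct markers in 1 of 4 (median 0.69). Eggshell genes were lower in 6 of 12 cases (median −5.11), germline genes in 2 of 15 (median −1.13), gut markers in 1 of 17 (median −0.38) and muscle markers in 1 of 21 (median 0.031). No marker was called among 7 for trachea (median 0.38), 11 for neuron (median −0.35) and 3 for testis (median −0.37). The same held for 13 niche, escort and early follicle cell markers (median 0.0081). The part of all these lists in the members' values was not tested.

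CG16820 and CG43373 were the members called higher with bamGAL4. Calls of this kind compare the knockdown-labelled groups without their controls, so they are not differences in the change from control. That difference was not called in the same edgeR model (adjusted p = 0.535 for CG16820, 0.178 for CG43373 and 0.256 for CG9411). It rests on a few control counts per gene and cannot show that the changes were equal. CG16820 (2L:13246232-13250189) was at 66.5 and 44.1 CPM in bamGAL4 stwlGKD and at 20.0 and 18.3 CPM in nosGAL4 stwlGKD, a log2 difference of 1.47 (SE 0.32, edgeR adjusted p = 0.0349), against 0.134 and 0.522 CPM in bamGAL4 WT and 0.237 and 0.289 CPM in nosGAL4 WT. CG43373 (3L:16491838-16543370), for which RefSeq lists the adenylate cyclase synonyms AC and dADCY5, was at 50.5 and 52.6 CPM in bamGAL4 stwlGKD and at 11.9 and 19.3 CPM in nosGAL4 stwlGKD. Its log2 difference was 1.66 (SE 0.39, edgeR adjusted p = 0.045), and it was at 0.158 and 0.261 CPM in bamGAL4 WT and 0.735 and 0.0963 CPM in nosGAL4 WT. All 4 library pairs showed the same direction for both genes. CG43373 shares exonic sequence on the same strand with CG42514, which was at 73.8 and 70.5 CPM in bamGAL4 stwlGKD and 67.0 and 38.7 CPM in nosGAL4 stwlGKD, against 34.2 and 39.5 CPM in bamGAL4 WT and 32.5 and 32.3 CPM in nosGAL4 WT. Reads of these genes may be shared. The call of CG16820 was lost without bamGAL4 stwlGKD replicate 1 (1.17, edgeR adjusted p = 0.470) or replicate 2 (1.72, adjusted p = 0.142) and without nosGAL4 WT replicate 1 or 2 (1.48 each, adjusted p = 0.0589 and 0.0594). That of CG43373 was lost without either bamGAL4 stwlGKD library (1.72 and 1.62, adjusted p = 0.375 and 0.315), without nosGAL4 stwlGKD replicate 1 (1.36, adjusted p = 0.0510) and without either bamGAL4 WT library (1.66 and 1.67, adjusted p = 0.0669 and 0.0650). Over all alternatives the adjusted p ran from 0.00181 to 0.470 for CG16820 and from 0.00424 to 0.375 for CG43373.

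CG9411 was the member called lower with bamGAL4, with a log2 difference of −2.32 (SE 0.34, edgeR adjusted p = 0.00901), or 0.200 of the nosGAL4 level. The call was lost without bamGAL4 stwlGKD replicate 1 (−2.21, adjusted p = 0.151) or replicate 2 (−2.43, adjusted p = 0.0832), and held when either nosGAL4 stwlGKD library was left out (−1.81 and −2.70). Over all its alternatives the adjusted p ran from 2.27e-07 to 0.151. CG13793 fell short of the threshold at 1.02 (SE 0.26, adjusted p = 0.0552) and passed it under 7 alternatives, among them RLE size factors (1.08, adjusted p = 0.0440), DESeq2 (1.08, adjusted p = 0.00241) and the fit without nosGAL4 stwlGKD replicate 2 (1.01, adjusted p = 0.0304). Over all its alternatives the adjusted p of CG13793 ran from 0.00241 to 0.420. CG30116 had a log2 difference of 0.99 (SE 0.34, adjusted p = 0.125) and CG4950 one of 0.46 (SE 0.25, adjusted p = 0.301).

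**Figure D3:**
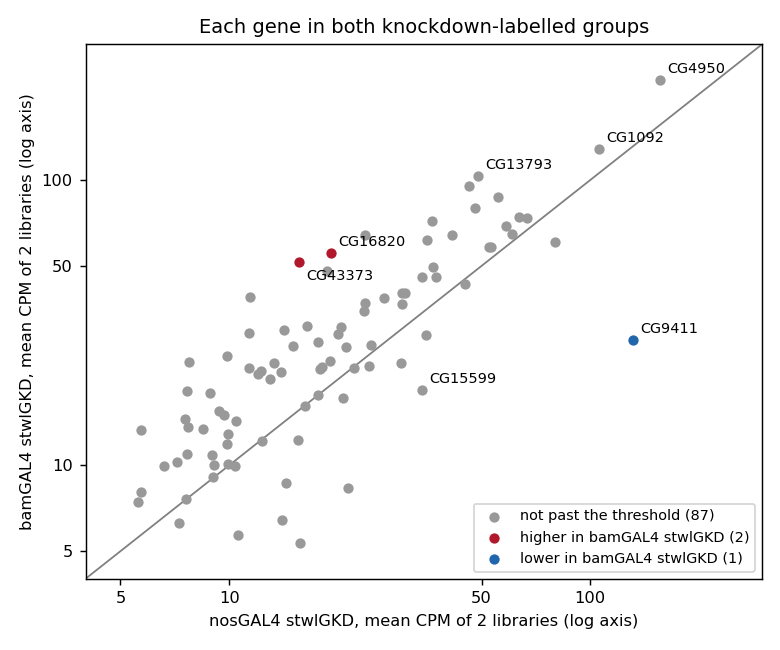
Mean CPM of each gene over 2 libraries of bamGAL4 stwlGKD (vertical, log axis) and of nosGAL4 stwlGKD (horizontal, log axis), with the line of equality. Colours mark the edgeR calls between these groups: 2 genes higher and 1 lower with bamGAL4, and 87 not past the threshold. Most dots lie above the line, and CG9411 lies far below it.

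The replicates of nosGAL4 stwlGKD were less even than those of bamGAL4 stwlGKD. With bamGAL4, 59 of the 90 genes were higher in replicate 1 and the median ratio of replicate 1 to replicate 2 was 1.07. With nosGAL4, 21 genes were higher in replicate 1 and the median ratio was 0.754 (quartiles 0.588 and 0.964). A ratio over 2 in either direction was seen for 1 gene with bamGAL4 and for 18 genes with nosGAL4, of which 14 were higher in replicate 2. The widest was CG34398 (2L:8898786-8933594), at 5.08 and 20.9 CPM in nosGAL4 stwlGKD but 20.6 and 19.6 CPM in bamGAL4 stwlGKD, against 0.134 and 0.174 CPM in bamGAL4 WT and 0.355 and 0.481 CPM in nosGAL4 WT. Marker sums in the nosGAL4 pair had ratios on both sides of 1: 0.647 for haemocyte, 0.696 for neuron, 0.733 for trachea, 0.751 for spermatheca and oviduct, 0.777 for niche, escort and early follicle cell, 0.868 for muscle and 0.947 for testis markers. They were 1.11 for germline, 2.58 for fat body, 4.46 for gut and 4.79 for eggshell genes. This describes 1 pair of libraries, and the part of these lists in the members' values was not tested.

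**Figure D4:**
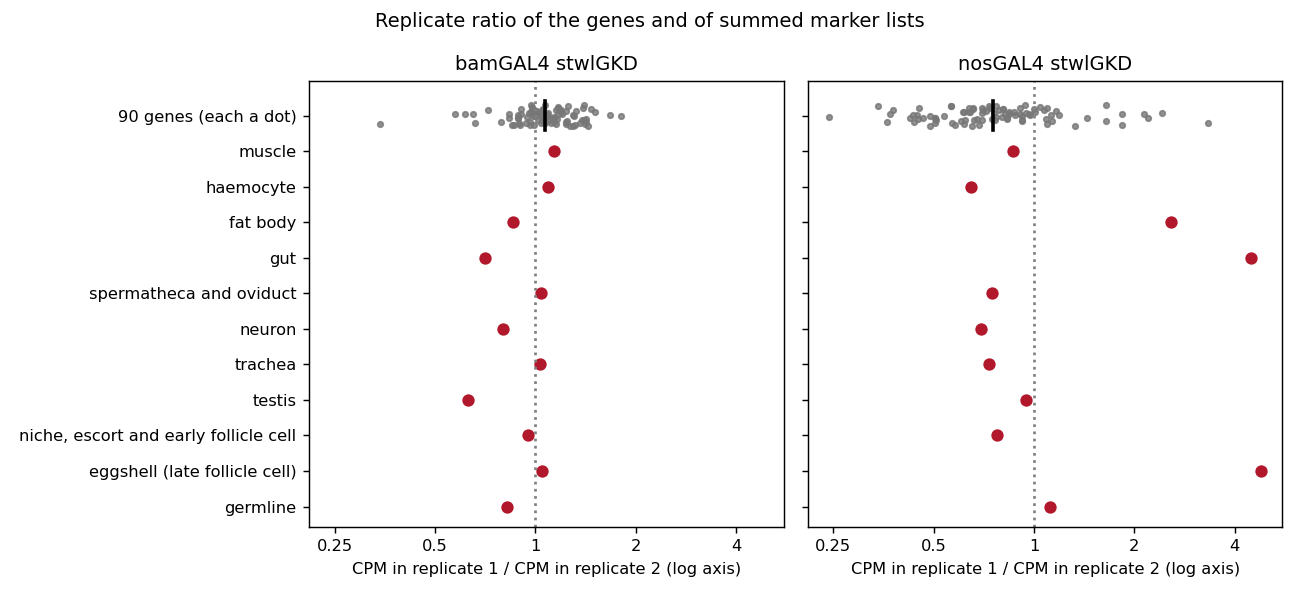
Ratio of CPM in replicate 1 to replicate 2 (log axis) within bamGAL4 stwlGKD and nosGAL4 stwlGKD. Grey dots are the 90 genes with their median as a black bar (1.07 and 0.754), and red dots are marker lists by their summed CPM. In nosGAL4 stwlGKD the eggshell, gut and fat body sums were 4.79, 4.46 and 2.58 times as high in replicate 1, while most of the 90 genes were lower there.

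Membership ended on a gradual slope rather than at a gap. The genes nearest inside the knockdown threshold were CG6739 (2L:7608389-7616533) with a lowest level of 5.08 CPM, CG34437 (3R:28283719-28284725) with 5.08 CPM and CG34398 with 5.08 CPM, each in nosGAL4 stwlGKD replicate 1. Those nearest outside it were CG42694, CG42750 and CG17264, each at 4.96 CPM in the same library. CG6739 was at 8.54 and 7.54 CPM in bamGAL4 stwlGKD and 5.08 and 6.33 CPM in nosGAL4 stwlGKD, against 0 and 0.261 CPM in bamGAL4 WT and 0 and 0.0963 CPM in nosGAL4 WT. Of 3545 CG-numbered genes below 1 CPM in every control, 3281 reached 5 CPM in no knockdown-labelled library, 64 in 1, 64 in 2, 46 in 3 and 90 in all 4. Among the 46, the missing library was nosGAL4 stwlGKD replicate 1 for 32 genes and its replicate 2 for 11. Both bamGAL4 stwlGKD libraries passed for 180 of the genes and both nosGAL4 stwlGKD libraries for 102. The 90 members make up 50% of the genes that passed with bamGAL4 and 88.2% of those that passed with nosGAL4. The difference between these counts was not tested.

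The annotation described all 90 members as protein coding. Their longest coding sequences ran from 89 to 2289 codons with a median of 434, against a median of 316 for the other 6309 CG-numbered coding genes. Of the members 16.7% had at least 1000 codons, against 5.85% of the others, and 10% had under 150 codons, against 18.9%. Only 5.56% had transcripts of a single exon, against 20.0%. The members were spread over all chromosome arms, with 24 on 2L, 24 on 3R, 16 on 3L, 14 on 2R, 11 on X and 1 on chromosome 4. Arm 2L held 26.7% of the members and 18.6% of all CG-numbered genes, and X held 12.2% and 16.5%. CPM are not divided by length, so at equal transcript numbers a longer gene passes a floor in CPM more easily. It also stays under a ceiling in CPM, as the rule set for the controls, less easily. The part of either in the members' length was not tested.

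Few members were neighbours of each other. With a distance of at most 10 kb, 8 members formed 4 pairs, which is 8.89% of the members, against 3.82% of the other CG-numbered genes that had a member this close. CG31445 and CG11951 lie on the minus strand within 3R:29235322-29244827, with the gene CR31427 between them. CG31445 was at 71.0 and 67.0 CPM in bamGAL4 stwlGKD and 47.9 and 68.7 CPM in nosGAL4 stwlGKD, against 0.134 and 0.609 CPM in bamGAL4 WT and 0 and 0.289 CPM in nosGAL4 WT. CG11951 was at 21.2 and 23.4 CPM in bamGAL4 stwlGKD and 16.4 and 32.5 CPM in nosGAL4 stwlGKD, against 0 and 0.174 CPM in bamGAL4 WT and 0 and 0.0963 CPM in nosGAL4 WT. SP1029, the next gene after CG31445, was already expressed in the controls, at 88.8 and 72.6 CPM in bamGAL4 stwlGKD and 69.7 and 38.1 CPM in nosGAL4 stwlGKD, against 38.8 and 71.7 CPM in bamGAL4 WT and 40.0 and 31.7 CPM in nosGAL4 WT. On 2R, CG4945 and CG4927 (2R:16566023-16574154) and CG3746 and CG30196 (2R:22648995-22655392) formed pairs, and CG10483 and CG32407 (3L:5917905-5923567) formed the remaining one. CG4945 was at 27.0 to 37.9 CPM and CG4927 at 8.27 to 10.3 CPM in the knockdown-labelled libraries, against at most 0.710 and 0.174 CPM in the controls. CG3746 was at 14.9 to 22.6 CPM and CG30196 at 5.21 to 7.57 CPM, against at most 0.522 and 0.535 CPM.

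The genes next to members were examined in the same libraries. The members had 176 nearest neighbours that were not members, and 117 of these passed the count filter and were tested. With edgeR adjusted p under 0.05 in both drivers, 49 of them (41.9%) were higher in stwlGKD than in WT, against 27.9% of all genes tested and 27.2% with the members left out. 17 neighbours (14.5%) were lower with both drivers, against 21.3% of all genes. The difference between these shares was not tested. Of the 176 neighbours, 4 (2.27%) met the same thresholds as the members. The share of all genes, 1.67%, counts the members, which the 176 leave out. Of the 236 genes behind it only 146 are not members, so it is too high a background for the neighbours. CG-numbered genes that meet them are members, so these 4 carry other names: Nrx-1, the synaptic adhesion protein neurexin, the potassium channel gene Shaw, dpr8 of the Dpr family of cell surface proteins, and Snmp1, known for pheromone sensing. A further 52 neighbours (29.5%) stayed below 1 CPM in all 8 libraries, close to the 32.8% of all genes.

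Exons of 24 members overlapped those of another annotated gene, 3 on the same strand and 23 on the opposite strand. The strand setting of the counting is not stated for these tables, and reads of such partners may not be told apart. CG10970, picked after its values were seen, has a partner on the same strand, and sharing of reads between them was not tested. CG10970 was at 7.27 and 10.1 CPM in bamGAL4 stwlGKD and 11.0 and 17.7 CPM in nosGAL4 stwlGKD, against at most 0.190 CPM in bamGAL4 WT and 0.478 CPM in nosGAL4 WT. Its same-strand partner CG44325 was at 418 and 345 CPM in bamGAL4 stwlGKD and 514 and 627 CPM in nosGAL4 stwlGKD, against 9.18 and 8.68 CPM in bamGAL4 WT and 10.4 and 14.9 CPM in nosGAL4 WT. CG4945 overlaps the ribosomal protein gene RpS15 on the opposite strand, which was at 730 to 1420 CPM in the knockdown-labelled libraries, against 995 to 1810 CPM in the controls. The other 66 members had no exonic overlap.

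Some members have since been named or carry family synonyms, so "uncharacterised" describes the symbol in the count tables. Besides CG31690, 4 members have a gene name in the current reference; these genes were picked for their names after the values were seen. CG14964 is MnM there, a name that stands for a myomesin and myosin binding protein of muscle. It was at 72.5 and 71.2 CPM in bamGAL4 stwlGKD and 19.7 and 53.3 CPM in nosGAL4 stwlGKD, against 0.401 and 0.782 CPM in bamGAL4 WT and 0.237 and 0.193 CPM in nosGAL4 WT. CG10483 is PXo, a phosphate transporter described in the fly gut, and stood at 8.91 to 15.4 CPM in the knockdown-labelled libraries, against 0 to 0.937 CPM in the controls. CG5955 is Tdh, a threonine dehydrogenase, and was at 7.57 to 14.5 CPM, against 0 to 0.134 CPM. CG11319 is Dpp10, of the dipeptidyl peptidase family, and was at 5.20 to 12.3 CPM, against 0 to 0.355 CPM. RefSeq synonyms also place 6 members (6.67%) among the numbered serine proteases (SP) or their homologues (SPH), a large family of secreted enzymes and enzyme-like proteins in insects, against 2.96% of the CG-numbered genes. They are CG4259 (SPH173), CG3505 (SPH9), CG34437 (SPH201), CG10764 (SP77), CG4927 (SP42) and CG8738 (SPH121). CG4259 was the highest, at 24.8 and 29.1 CPM in bamGAL4 stwlGKD and 10.9 and 24.3 CPM in nosGAL4 stwlGKD, against 0.401 and 0.348 CPM in bamGAL4 WT and 0.473 and 0.0963 CPM in nosGAL4 WT. CG3505 was at 20.6 and 15.9 CPM in bamGAL4 stwlGKD and 7.80 and 7.50 CPM in nosGAL4 stwlGKD, against 0.669 and 0.435 CPM in bamGAL4 WT and 0 and 0.0963 CPM in nosGAL4 WT. CG34437 was at 22.9 and 23.1 CPM in bamGAL4 stwlGKD and 5.08 and 10.4 CPM in nosGAL4 stwlGKD, against 0.134 and 0.261 CPM in bamGAL4 WT and no count in nosGAL4 WT. In all 6 of them the mean was higher with bamGAL4 than with nosGAL4, though none passed the test. The difference of CG4927 changed sign to −0.028 (log2) without nosGAL4 stwlGKD replicate 1. Most members leaned the same way, since over the whole set the log2 difference was above 0 for 67 and below 0 for 23. The direction is therefore not particular to the genes with such a synonym. CG34437 had a log2 difference of 1.51 (SE 0.45, edgeR adjusted p = 0.0984). Of the 190 CG-numbered genes with such a synonym, 113 stayed below 1 CPM in all 8 libraries.

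Among genes with names other than CG numbers, 146 met the same thresholds (1.9% of such genes). Some are in the lists of cell type markers, namely the haemocyte genes Hml, eater, NimC1 and Sr-CI (4 of 12), the tracheal genes btl, trh and verm (3 of 7), the larval serum proteins Lsp1beta and Lsp1gamma of fat body (2 of 10), the neuronal genes cpx and Shab (2 of 16) and the somatic ovary genes Wnt4 and cas (2 of 14). No gene of the muscle, gut, testis, eggshell, germline or spermatheca and oviduct lists did. Every muscle, eggshell, germline and spermatheca and oviduct marker reached 1 CPM in some control library, so that these lists could not meet the rule. Only 6 haemocyte, 4 tracheal, 4 fat body, 12 neuronal and 4 somatic ovary markers were below 1 CPM in every control. Every knockdown-labelled library lay above every control for 10 of 12 haemocyte, 6 of 7 tracheal and 9 of 10 fat body markers. The same held for 9 of 16 neuronal and 11 of 14 somatic ovary markers, and no marker of these lists showed the reverse. Hml, a haemocyte clotting factor and the highest of these genes, was at 1441 and 1578 CPM in bamGAL4 stwlGKD and 559 and 663 CPM in nosGAL4 stwlGKD, against 0.134 and 0.869 CPM in bamGAL4 WT and 0.947 and 0.578 CPM in nosGAL4 WT. btl, the FGF receptor of tracheal cells, was at 37.0 and 33.1 CPM in bamGAL4 stwlGKD and 15.0 and 17.8 CPM in nosGAL4 stwlGKD, against 0 and 0.522 CPM in bamGAL4 WT and 0.237 and 0.0963 CPM in nosGAL4 WT. Of the testis list, 15 of 18 genes were below 1 CPM in every control and 1 reached 5 CPM in every knockdown-labelled library.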

How the data were processed

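Ovary RNA of 8 libraries was analysed. The authors deposited estimated counts per gene, not scaled to each other. Per the submitters' processing notes, the tools included Salmon 1.2.1, STAR 2.7.5b, Trim Galore 0.6.6 and FastQC 0.11.8, and the build was dm6. Annotation and strand setting: not given in the sources used here. CPM are counts over the column total, as in the membership rule. For tests, counts were rounded, filtered (filterByExpr, minimum count 10, total 15; 8957 genes, all 90 members among them) and fitted with edgeR 4.0.16 (limma 3.58.1, R 4.3.3) as 1 robust quasi-likelihood model of the 4 groups with TMM factors and 4 residual degrees of freedom. P-values were adjusted by Benjamini-Hochberg, threshold 0.05, and the model was tested on simulated data. Positions, exons and neighbours came from annotation BDGP6.54 (dm6 coordinates), and synonyms from RefSeq; all 90 members were found in both. The floor is 3 counts, which is 0.246 to 0.401 CPM in a single library. Ratios to a control group without a count set the 3 counts against the summed total of both its libraries. Intervals are exact (95%).

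Members and lists were chosen with earlier results of these data known. The genes named were the 8 highest, those called between drivers (up to 5 per direction), those nearest the thresholds and members of the 3 first-ranked position pairs; protein families were not formed, as no protein sequences were used. Any other is said to be chosen later or belongs to a list. Alternatives were RLE factors, library totals, ribosomal protein scaling, DESeq2 1.42.0, other filters, other thresholds, fewer libraries and the replicate number as a block.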

Additional observations from a re-analysis of the deposited data

How the results depend on the processing

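The number of genes that met the rule was 52 with at least 10 CPM asked for, 125 with at least 3 CPM, 47 with under 0.5 CPM in the controls, 1 with no control count, 112 with TMM-scaled and 119 with RLE-scaled CPM, and 91 to 122 when 1 library was left out, with 122 without nosGAL4 stwlGKD replicate 1. Between bamGAL4 and nosGAL4 stwlGKD the members called higher numbered 2, against 5 with ribosomal protein scaling, 6 with DESeq2 and 5 without a count filter (4.41%, 5.76% and 2.41% of all genes were higher in these fits), 0 in the 4 stwlGKD libraries alone (edgeR; 21 at p under 0.05 before adjustment) and 0 with the replicate block (edgeR; 14 before adjustment). With 1 library left out they ran from 0 (without bamGAL4 stwlGKD replicate 1 or 2; edgeR, 4 and 6 before adjustment) to 12 (without nosGAL4 stwlGKD replicate 2), with 1 without either nosGAL4 WT library, and members called lower from 0 to 1 (0 without either bamGAL4 stwlGKD library; 1 and 3 before adjustment). A group left with 1 library was assumed to vary like the others. The median log2 difference of the members was 0.79 with ribosomal protein scaling and 0.25 to 0.57 with a library left out. The count over all genes, 371, was 979 with DESeq2, 124 in the 4 libraries alone, 231 with the replicate block and 22 to 1371 with 1 library left out; the cause was not tested.

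Same-numbered libraries of bamGAL4 and nosGAL4 stwlGKD did not deviate together (r = −0.047 across 8957 genes), so the numbers were not taken as pairs. With 1 pair of replicates per group, this cannot exclude a pairing. The replicate block took CG16820 to edgeR adjusted p = 0.0603 and CG43373 to 0.0714 and left CG9411 called. Of 304 values of the 19 named genes under 16 alternatives, 268 kept direction and side, 12 passed the threshold anew, 15 lost it and 9 changed sign, none of them called: CG11951 to 0.20, CG30196 to 0.19 and CG3746 to 0.095 with ribosomal protein scaling. With a library left out CG11951 ran from −0.60 to 0.38, CG31445 from −0.047 to 0.46, CG34398 from −0.11 to 1.92, CG45263 from −0.27 to 0.47 and CG4927 from −0.028 to 0.21. At 5 CPM a knockdown-labelled library held 42.3 to 60.9 counts, which limits the lowest members, and control levels rest on a few counts each.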

Other observations

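CG15599 (X:15684947-15688857), picked after its values were seen, was high in opposite replicates of the drivers. It was at 9.36 and 27.4 CPM in bamGAL4 stwlGKD and at 52.5 and 15.8 CPM in nosGAL4 stwlGKD, against 0 and 0.0869 CPM in bamGAL4 WT and no count in nosGAL4 WT. Replicate numbers were not taken as pairs, so this was read as a spread of 2.93-fold within bamGAL4 and 3.32-fold within nosGAL4 stwlGKD. In the bamGAL4 pair no other member differed by more than 2-fold.

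CG13794, the gene next to CG13793 and also picked later, showed a wider gap between the drivers than its neighbour. It was at 18.1 and 18.4 CPM in bamGAL4 stwlGKD and at 1.51 and 1.64 CPM in nosGAL4 stwlGKD, against 0.134 and 0.174 CPM in bamGAL4 WT and 0 and 0.0963 CPM in nosGAL4 WT. It is not a member, since its nosGAL4 level stayed under 5 CPM.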
